A study of Mus musculus with 9 samples.

Results

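The replication-dependent histone genes are the multicopy genes that code for the bulk of the nucleosome's proteins. They were taken as every gene of the deposited table whose symbol starts with Hist1h, Hist2h, Hist3h or Hist4h, which gave 60 of 20778 genes. By class, 6 code for the linker histone H1, 18 for H2A, 16 for H2B, 7 for H3 and 13 for H4. By position, 47 belong to the Hist1 cluster on chromosome 13, 9 to the Hist2 cluster on chromosome 3, 3 to the Hist3 cluster on chromosome 11, and 1, Hist4h4, lies on chromosome 6. The values that led to the choice of this family are the values given here, so calls on its genes are given as a description, without p-values, and nothing rests on them.

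Bulk RNA was sequenced from 3 libraries of each of 3 groups, all from C57BL/6 mouse cells and all containing GL261, a mouse glioblastoma line labelled with mCherry. The tumour group (labelled whole tumor cells) came from brains of male immunocompetent mice, 7 weeks old at implantation (5 mice in all), resected 14 days after 50000 GL261 cells were placed in the striatum. In the 2D culture group, GL261 grew on a petri dish together with astrocytes, microglia, pericytes and endothelial cells freshly isolated from brains of male mice 6 to 10 weeks old. In the 3D bioink group the same mixture of 5 cell types grew in a fibrin gel, which was then digested with collagenase II for 3 h and filtered before RNA isolation. Digestion is recorded for the 3D bioink only, so its effect and that of the gel cannot be told apart. The labels do not say whether the 3 libraries of a group came from separate mice or cultures, so the spread between them may be technical. Each library is a mixture, and in such bulk samples fewer cycling cells and less histone RNA per cell cannot be told apart.

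Every value is a normalized count as deposited, rounded to whole numbers, and is listed below in the order of replicates 1, 2 and 3. The depth behind these values is unknown. They summed to between 13548461 and 16388074 per library, and those sums follow the authors' normalization. Replicate 1 of the 3D bioink stood apart from the other libraries, with an array weight (a library's estimated reliability in the model) of 0.236 against 0.688 to 4.96 for the other 8. It was also the highest of its group in 35 of the 56 histone genes tested (62.5%), against 37.5% of all genes, and results that rest on it are given with and without it. Replicate 1 of the tumours was the highest of its group in 34 of the 56 (60.7%), against 33.5% of all genes.

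Eukaryotic DNA is wound around octamers of H2A, H2B, H3 and H4, and H1 binds the linker between them. A cell that copies its genome must also double its histones, and the replication-dependent genes supply them in S phase, when their transcription and the stability of their mRNA both rise. Most are short genes without introns. Their mRNAs end in a conserved stem-loop in place of a poly(A) tail. The stem-loop-binding protein SLBP and the U7 small nuclear ribonucleoprotein direct the cut that makes this end. Some histone variants, such as H2A.Z, are made from ordinary genes throughout the cell cycle. The labels name a directional total RNA kit and do not say whether poly(A) RNA was selected, a step that bears on how mRNAs without a tail are sampled.

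The stem-loop was searched in the annotated transcripts (GENCODE, mouse release M21, GRCm38) of all 60 genes as the 16 letters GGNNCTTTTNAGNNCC downstream of the stop codon, on the sense strand. For a gene with several transcripts, a coding one with a match was taken where there was one, then the longest. A match was found in 40 genes, 21 to 58 bases after the stop codon. In many of the other 20 the annotated transcript leaves no room for a site. It ends with 0 bases after the stop codon in Hist1h1b, Hist1h2ai, Hist1h2bl and Hist1h4k, among others. Others have room but no match, with 2192 bases after the stop codon in Hist2h2be and 742 in Hist1h2bc. A stem-loop that differs in a fixed letter of the search would not be found. The pseudogene Hist3h2bb-ps has no annotated stop codon. A gene without a match may therefore still carry a stem-loop. The sites below are shown because the stem-loop is the feature that sets this family's mRNAs apart and because its letters separate H4 from the other classes. Capitals mark the stem-loop.
Hist1h1e: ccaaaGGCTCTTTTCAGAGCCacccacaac
Hist2h2ac: aaaaaGGCTCTTTTTAGAGCCaccaaatct
Hist1h2bb: ccaaaGGCTCTTTTAAGAGCCacccacact
Hist1h3b: ccaaaGGCTCTTTTCAGAGCCacccacagt
Hist1h4d: ccaaaGGCCCTTTTCAGGGCCactaccttc
Hist1h4b: caaaaGGTCCTTTTCAGGACCactcactga
The form of Hist1h1e and Hist1h3b was the most frequent, in 3 H1, 10 H2A, 6 H2B and 4 H3 genes. The form of Hist1h2bb was found in 1 H1, 2 H2B and 2 H3 genes, and that of Hist2h2ac in that gene only. H4 genes carried 3 forms of their own: that of Hist1h4d in 7 genes, that of Hist1h4b in 2, and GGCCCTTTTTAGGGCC in 2.

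Promoters of 54 of the 60 genes were matched in the RefSeq table (GRCm38.p6), as the 250 bases before and 50 after each start. They were searched on both strands, in any overlap, for 5 short motifs: TATAAA (the TATA box), CCAAT, ATTTGCAT (the octamer known from H2B promoters), AAACACA (the H1 box) and GGTCCG (the core of an H4 promoter element). The following are shown as 1 promoter for each of 4 classes, with motif matches in capitals.
Hist1h1e, chr13:23622509-23622808, minus strand: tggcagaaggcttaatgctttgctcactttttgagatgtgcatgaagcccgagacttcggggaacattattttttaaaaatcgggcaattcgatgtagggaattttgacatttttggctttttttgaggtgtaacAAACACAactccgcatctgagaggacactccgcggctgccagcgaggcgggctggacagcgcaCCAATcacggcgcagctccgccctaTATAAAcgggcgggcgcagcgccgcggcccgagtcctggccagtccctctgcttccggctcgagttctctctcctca
Hist2h2ac, chr3:96220831-96221130, minus strand: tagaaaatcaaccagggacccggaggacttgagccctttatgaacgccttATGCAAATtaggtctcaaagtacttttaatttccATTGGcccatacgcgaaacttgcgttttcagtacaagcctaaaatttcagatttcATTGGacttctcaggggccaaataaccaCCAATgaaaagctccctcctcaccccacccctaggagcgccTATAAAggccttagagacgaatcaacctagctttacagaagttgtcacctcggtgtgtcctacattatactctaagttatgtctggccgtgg
Hist1h2bb, chr13:23746484-23746783, plus strand: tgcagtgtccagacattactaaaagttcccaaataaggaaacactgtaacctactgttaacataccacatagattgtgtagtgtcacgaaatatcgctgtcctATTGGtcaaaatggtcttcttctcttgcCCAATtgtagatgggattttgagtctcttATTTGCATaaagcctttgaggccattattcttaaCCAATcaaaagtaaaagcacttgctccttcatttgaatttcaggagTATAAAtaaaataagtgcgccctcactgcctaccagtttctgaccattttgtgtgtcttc
Hist1h4d, chr13:23581318-23581617, plus strand: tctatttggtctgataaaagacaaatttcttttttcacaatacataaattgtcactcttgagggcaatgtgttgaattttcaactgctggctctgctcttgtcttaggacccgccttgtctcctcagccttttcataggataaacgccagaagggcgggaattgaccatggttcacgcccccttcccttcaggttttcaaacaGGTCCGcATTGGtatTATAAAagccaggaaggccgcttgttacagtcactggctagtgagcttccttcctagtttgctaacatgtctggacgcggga
TATAAA was found in 32 of the 54 histone promoters, against 13.62% of the 32851 promoters in the table. CCAAT was found in every matched H1, H2A, H2B and H3 promoter and in 3 of 12 H4 promoters, against 37.41% of all promoters. The octamer was found in 7 of 17 H2A and 5 of 13 H2B promoters, against 1.735%, and many H2A and H2B genes lie head to head so that their windows overlap. AAACACA was found in 5 of 6 H1 promoters, against 7.184%, and GGTCCG in 11 of 12 H4 promoters and no promoter of another class, against 8.252%. A match describes letters in the window and is not evidence of a bound factor.

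Summed over the 60 genes, histone RNA was highest in 2D culture, intermediate in the tumours and lowest in the 3D bioink. The sums were 113119, 107172 and 106398 in tumours, 215508, 221942 and 237485 in 2D culture, and 75146, 67314 and 64242 in the bioink. The groups did not overlap. As a share of all values in a library, the family made up 0.652% to 0.693% in tumours, 1.37% to 1.53% in 2D culture and 0.471% to 0.555% in 3D bioink. The mean sum was 2.07-fold higher in 2D culture than in tumours, 1.58-fold lower in 3D bioink than in tumours (1.66-fold without replicate 1 of the bioink), and 3.27-fold higher in 2D culture than in 3D bioink. The plot of class sums by library shows that the mean of each class kept this order, with the smallest gap between tumours and bioink in H4, where libraries overlapped. As a share of all values in a library, H4 made up 0.0727% to 0.0863% in tumours and 0.0708% to 0.0917% in the bioink. By that measure the bioink range spanned the tumour range.

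**Figure D1:**
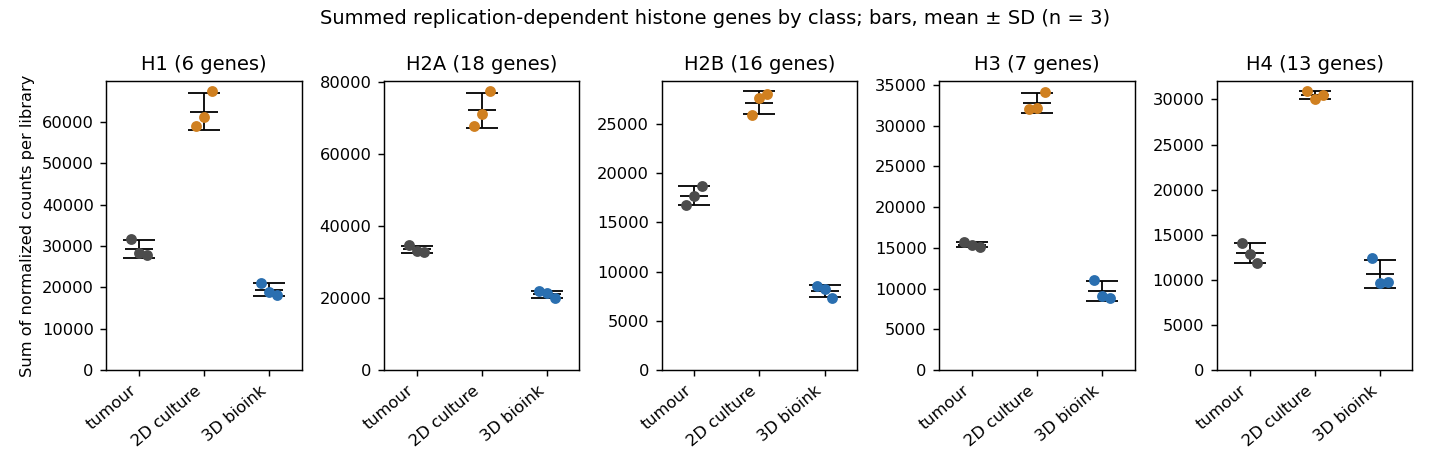
Sum of normalized counts of the genes of each histone class in each library (points), with mean and SD of the 3 libraries of a group; the y axis starts at 0 and differs between panels. In all 5 classes the 2D culture libraries lie above the tumour libraries, and the bioink libraries lie below the tumours except in H4, where bioink replicate 1 (12429) lies inside the tumour range.

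A gene was tested when its mean over the 9 libraries was at least 10, and called when its Benjamini-Hochberg adjusted p over the 13773 genes tested was under 0.05 (limma on log2 of the value plus 1). Of the 60 histone genes 56 were tested. The other 4 were Hist1h1t, Hist1h2aa and Hist1h2ba, known as testis histones, and Hist1h2bq, and none of these exceeded 21 in any library. In 2D culture against tumours 47 of the 56 were called higher and none lower, where 27.3% of all tested genes were called higher and 27% lower. In 3D bioink against tumours 34 were called lower and none higher, where 37.3% of all genes were called lower and 27.1% higher. In 3D bioink against 2D culture 50 were called lower and none higher, where 32.2% of all genes were called lower and 27% higher. At an unadjusted limma p under 0.05 the counts in the direction without calls were also 0 in all 3 comparisons. Since the family was chosen on these contrasts, nothing is read from these counts against their background. The 3 libraries of the lower or higher group lay wholly beyond the other group in 49 of the 56 genes for 2D culture against tumours (48 higher, where 32.2% of all genes were, and 1 lower, where 31.7% were), in 30 for 3D bioink against tumours (all lower, as in 38.9% of all genes) and in 49 for 3D bioink against 2D culture (all lower, as in 35.6%). The same tumour, 2D and bioink libraries serve 2 of the 3 comparisons each.

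The median log2 difference of the 56 genes was 0.96 in 2D culture against tumours (all genes 0.01), -0.58 in the bioink against tumours (all genes -0.11) and -1.64 in the bioink against 2D culture (all genes -0.02). The difference between bioink and tumours depended on scaling. When libraries were brought to equal totals, which moved the median of all genes from -0.11 to 0.14, 21 histone genes were called lower and 2 higher, with a median of -0.32. The share of all genes called was counted only in the fit with the settings given above. Counts under other settings, here and below, therefore have no background beside them, and nothing is read from them about the family. Without bioink replicate 1, 38 genes were called lower than in tumours and 51 lower than in 2D culture. Every 2D culture library lay above every tumour library and every tumour library above every bioink library in 29 of the 60 genes, an order that 8.29% of all 13773 genes had. These were 4 H1, 9 H2A, 7 H2B, 5 H3 and 4 H4 genes.

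**Figure D2:**
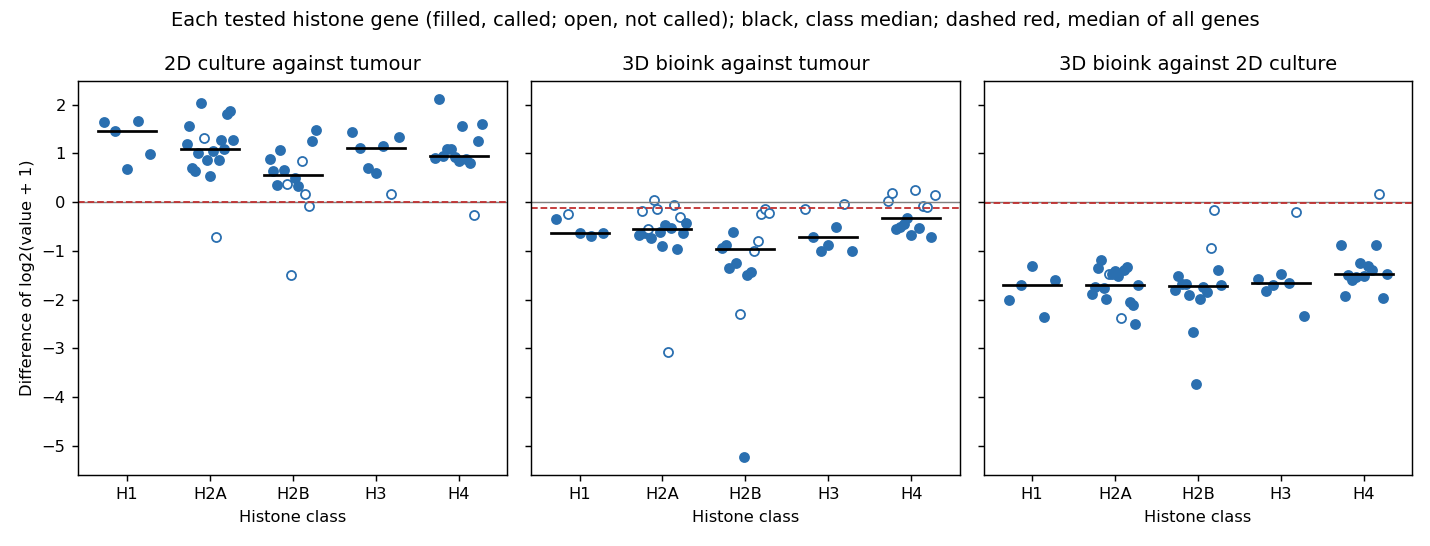
Difference of log2(value + 1) for each tested histone gene, by class, in the 3 comparisons; filled points were called, open points were not, black bars are class medians and the dashed red line is the median of all genes. Most points lie above 0 in 2D culture against tumours and below -1 in the bioink against 2D culture, while in 3D bioink against tumours the class medians run from -0.33 (H4) to -0.97 (H2B).

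The linker histones of somatic cells, Hist1h1a to Hist1h1e, were all higher in 2D culture than in tumours, with differences of 0.68 to 1.66 on the log2 scale (5 of 5 called, median 1.46). The class sum was 31748, 28291 and 27846 in tumours, 58884, 61049 and 67351 in 2D culture and 21144, 18977 and 18180 in the bioink. Against tumours the bioink was lower for 4 of 5 (median -0.63, but 1 of 5 after quantile normalization), and against 2D culture for 5 of 5 (median -1.71).

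Hist1h1d (chromosome 13, 23553262 to 23560686, plus strand) showed the largest H1 difference between the cultures. It read 3718, 3470 and 3288 in tumours, 10402, 10814 and 11992 in 2D culture and 2335, 2030 and 2066 in the bioink. The 3 groups did not overlap, and 2D culture stood 3.17-fold above tumours (log2 difference 1.66, SE 0.08) and 5.16-fold above bioink. The bioink was 1.63-fold below tumours (log2 difference -0.70, SE 0.08). Hist1h1a rose as much in 2D culture: it read 3085, 2813 and 3060 in tumours, 9845, 9181 and 9081 in 2D culture and 2600, 2185 and 2242 in the bioink. Its 3 groups were also separate, with a log2 difference of 1.65 (SE 0.07) between 2D culture and tumours and of -0.35 (SE 0.07) between bioink and tumours, the latter not called under any of the 3 other scalings.

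Hist1h1e (chromosome 13, 23620629 to 23622558, minus strand) and Hist1h1c (chromosome 13, 23738808 to 23740367, plus strand) had smaller differences between 2D culture and tumours. Hist1h1e read 12035, 10392 and 10206 in tumours, 20012, 20955 and 23312 in 2D culture and 7506, 6862 and 6740 in the bioink. Hist1h1c read 11671, 10435 and 10058 in tumours, 15188, 16772 and 19680 in 2D culture and 7461, 6945 and 6193 in the bioink. In both genes the 3 groups were separate, and the fold from tumour to 2D culture was 1.97 for Hist1h1e and 1.61 for Hist1h1c. From tumour to bioink both fell to a similar degree, by 0.63 (SE 0.08) and 0.64 (SE 0.10) on the log2 scale, calls that both lost under quantile normalization. The exception in this class was Hist1h1b, with 1233, 1181 and 1230 in tumours, 3432, 3321 and 3281 in 2D culture and 1227, 946 and 924 in the bioink. Bioink replicate 1 overlapped the tumours, and the difference between bioink and tumours (-0.25, SE 0.10) was not called. It was called, as lower, in 6 of the alternatives, among them leaving out that library (log2 difference -0.38).

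Among the H2A genes, 15 of 17 tested were called higher in 2D culture than in tumours (median 1.09), 10 of 17 lower in 3D bioink than in tumours (median -0.55, but 5 of 17 after equal totals) and 15 of 17 lower in 3D bioink than in 2D culture (median -1.71). The class sum was 34745, 33007 and 32908 in tumours, 67724, 71146 and 77391 in 2D culture and 21946, 21378 and 20070 in the bioink. The groups did not overlap, and the mean sum was 2.15-fold higher in 2D culture than in tumours and 1.59-fold lower in 3D bioink.

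Hist2h2ac (chromosome 3, 96220361 to 96220880, minus strand), whose stem-loop and promoter are printed above, had the largest fold between the cultures among the H2A genes tested. It read 2595, 2173 and 2334 in tumours, 8208, 8611 and 9224 in 2D culture and 1174, 1833 and 1665 in the bioink. All 3 groups were separate, with 2D culture 3.67-fold above tumours (log2 difference 1.88, SE 0.14) and 5.57-fold above bioink. The bioink was 1.52-fold below tumours (log2 difference -0.63, SE 0.14), a call lost when upper quartiles were made equal. Its neighbour Hist2h2ab lay at 164, 107 and 45 in tumours, 318, 303 and 360 in 2D culture and 89, 64 and 72 in the bioink. Only the 2D culture libraries stood apart there, since the tumour libraries spanned the bioink.

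Hist1h2ag (chromosome 13, 22042460 to 22042944, minus strand) had the most positive H2A difference between 2D culture and tumours. It read 116, 142 and 156 in tumours, 595, 583 and 510 in 2D culture and 120, 124 and 187 in the bioink. Thus 2D culture was 4.08-fold higher than tumours (log2 difference 2.03, SE 0.20), while tumours and bioink overlapped (0.04, SE 0.20). Hist1h2ai, one of the Hist1 genes with high values, read 4670, 4037 and 3931 in tumours, 6926, 7610 and 8594 in 2D culture and 3521, 2432 and 2408 in the bioink. Its groups were separate, and bioink replicate 1 was 1.45 times the mean of the other 2 bioink libraries. Hist3h2a, on chromosome 11, read 1841, 1709 and 1650 in tumours, 4373, 4071 and 4141 in 2D culture and 1467, 1181 and 1208 in the bioink, again without overlap. Hist1h2ae was the H2A gene called with the smallest difference between the cultures, -1.18 (SE 0.23), and its call between 2D culture and tumours (0.63, SE 0.23) was lost when any single one of the 3 tumour libraries or of 2D culture replicates 1 and 2 was left out.

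The copies of 2 H2A pairs cannot be read gene by gene, and other members carry part of the same limit. Of the 50-base stretches of their transcripts, 90.1% in Hist1h2ai, 78.9% in Hist1h2ag, 86.4% in Hist1h2bn and 82.8% in Hist1h2bl occur in other genes. The same holds for 71.5% in Hist1h4k. Hist2h2aa1 (chromosome 3, 96245497 to 96246082, plus strand) and Hist2h2aa2 (chromosome 3, 96239749 to 96240276, minus strand) shared 100% of the 50-base stretches of the shorter transcript, and Hist1h2ao and Hist1h2ap shared 93.5% by the same measure, so reads may have been split between the copies. Hist2h2aa1 alone read 1899, 1839 and 1119 in tumours, 4108, 3656 and 3688 in 2D culture and 2743, 1060 and 1195 in the bioink. Hist2h2aa2 alone read 11435, 12179 and 12706 in tumours, 22463, 26511 and 28396 in 2D culture and 5503, 7314 and 5860 in the bioink. In bioink replicate 1 the first copy was high and the second low, so that Hist2h2aa1 overlapped between bioink and tumours (log2 difference -0.06, SE 0.33). Their sum was 13334, 14018 and 13825 in tumours, 26571, 30167 and 32084 in 2D culture and 8246, 8374 and 7055 in the bioink. The summed pair showed no overlap between groups and stood 2.16-fold higher in 2D culture than in tumours and 1.74-fold lower in 3D bioink.

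The other pair behaved alike. Hist1h2ao alone was listed at 141, 560 and 304 in tumours, 238, 645 and 35 in 2D culture and 128, 0 and 306 in the bioink, with no order between groups and an SE of 1.89 on the log2 scale. Hist1h2ap alone was at 3438, 2968 and 3116 in tumours, 5707, 4989 and 6744 in 2D culture and 2031, 2426 and 2116 in the bioink. The sum of the pair was 3579, 3528 and 3420 in tumours, 5945, 5634 and 6779 in 2D culture and 2159, 2426 and 2422 in the bioink. Its coefficient of variation was 2.31% in tumours, 9.68% in 2D culture and 6.55% in the bioink, and the 3 groups were separate. The remaining pair, Hist1h2bq and Hist1h2br of the H2B class, shared 100% of the stretches of the shorter transcript but summed to at most 40 in any library. With the 3 pairs summed, 54 entries were tested, of which 46 were called higher in 2D culture than in tumours and 35 lower in 3D bioink than in tumours.

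**Figure D3:**
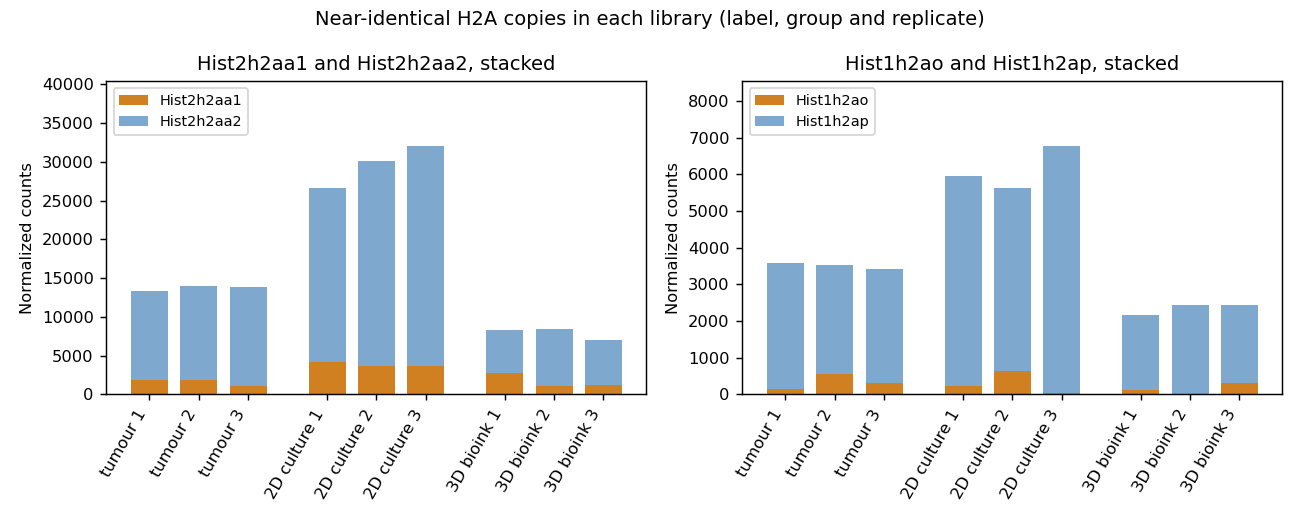
Normalized counts of 2 near-identical pairs of H2A genes, stacked, in each of the 9 libraries; the height of a bar is the sum of the pair. The split between copies varies among libraries of a group, while the summed heights of Hist2h2aa1 and Hist2h2aa2 lie between 13334 and 14018 in tumours, 26571 and 32084 in 2D culture and 7055 and 8374 in the bioink.

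For H2B the step between tumours and bioink was wider, and that between tumours and 2D culture narrower, than in the sums of the other classes. The sums were 16816, 17667 and 18679 in tumours, 25885, 27582 and 28030 in 2D culture and 8534, 8196 and 7339 in the bioink. The groups were separate, with 2D culture 1.53-fold above tumours and bioink 2.21-fold below them. As a share of the summed histone values, H2B made up 14.9% to 17.6% in tumours, 11.8% to 12.4% in 2D culture and 11.4% to 12.2% in 3D bioink. Whether the classes differ in response was not tested. Of 14 H2B genes tested, 9 were called higher in 2D culture than in tumours (median 0.56), 8 lower in 3D bioink than in tumours (median -0.97) and 12 lower in 3D bioink than in 2D culture (median -1.73).

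Hist1h2bg (chromosome 13, 23571396 to 23572013, plus strand) read 4828, 4849 and 5516 in tumours, 7044, 8154 and 8725 in 2D culture and 2383, 2106 and 1880 in the bioink. It was 1.57-fold higher in 2D culture than in tumours (log2 difference 0.65, SE 0.10) and 2.39-fold lower in 3D bioink (-1.26, SE 0.10), with separate groups. Hist1h2be (chromosome 13, 23583670 to 23621124, minus strand) read 2647, 2984 and 3263 in tumours, 3712, 3819 and 3706 in 2D culture and 1304, 1142 and 1048 in the bioink. There too the groups were separate, and the step down to the bioink (2.55-fold) exceeded the step up to 2D culture (1.26-fold). Hist1h2bc, at 2424, 2541 and 2499 in tumours, 3832, 3597 and 4145 in 2D culture and 1320, 1342 and 1366 in the bioink, followed the same order without overlap.

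Hist1h2bl and Hist1h2bn also had a wider step down to the bioink than up to 2D culture. Hist1h2bl read 1910, 2110 and 2575 in tumours, 2879, 3283 and 3019 in 2D culture and 747, 876 and 700 in the bioink, so that the bioink was 2.84-fold below tumours. Hist1h2bn read 1399, 1718 and 1666 in tumours, 1755, 2130 and 2097 in 2D culture and 604, 584 and 583 in the bioink, 2.70-fold below tumours. Hist1h2bb, whose stem-loop and promoter are printed above, read 1848, 1640 and 1729 in tumours, 3124, 3347 and 3111 in 2D culture and 916, 970 and 841 in the bioink. Its steps were nearly equal, 1.84-fold up to 2D culture and 1.91-fold down to bioink. All 3 of these genes had separate groups.

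Hist1h2bk (chromosome 13, 22035870 to 22036345, plus strand) was the H2B gene with the most negative difference between 2D culture and tumours among those tested. It was listed at 108, 63 and 37 in tumours, 27, 34 and 11 in 2D culture and 0, 0 and 4 in the bioink. Its 2D culture libraries lay below its tumour libraries (log2 difference -1.50, SE 0.76, not called, but called with a pseudocount of 5). Its difference between bioink and tumours, the most negative of the 56 tested members at -5.23 (SE 0.76), depends on the 1 added before taking logs and was -3.50 with a pseudocount of 5. Of its 50-base stretches, 74.2% occur in transcripts of other genes. The members outside the Hist1 cluster differed among themselves. Hist3h2ba read 324, 305 and 296 in tumours, 766, 777 and 670 in 2D culture and 349, 295 and 210 in the bioink, and the pseudogene Hist3h2bb-ps read 143, 142 and 134, then 458, 393 and 334, then 164, 111 and 94 in the same order. In both, 2D culture alone stood apart and bioink overlapped tumours. Hist2h2be lay between 14 and 56 in all 9 libraries, and its groups overlapped in all 3 comparisons.

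The H3 genes followed the family's order. Their sum was 15721, 15315 and 15088 in tumours, 32076, 32100 and 34182 in 2D culture and 11093, 9079 and 8887 in the bioink, without overlap. The mean was 2.13-fold higher in 2D culture than in tumours and 1.59-fold lower in 3D bioink (1.71-fold without bioink replicate 1). Of the 7 genes, 6 were called higher in 2D culture than in tumours (median 1.12), 5 lower in 3D bioink than in tumours (median -0.71) and 6 lower in 3D bioink than in 2D culture (median -1.67).

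Hist1h3b (chromosome 13, 23752267 to 23752886, plus strand) had the smallest SE of the class. It read 3268, 3234 and 3097 in tumours, 7418, 6748 and 6671 in 2D culture and 1992, 1972 and 1885 in the bioink. The groups were separate, with log2 differences of 1.12 (SE 0.05) from tumours to 2D culture and -0.71 (SE 0.05) from tumours to bioink. Hist2h3c2 (chromosome 3, 96238108 to 96239127, minus strand) read 2405, 2654 and 2551 in tumours, 5855, 6303 and 7001 in 2D culture and 928, 1523 and 1406 in the bioink, a fold of 4.97 between the cultures. Hist2h3b (chromosome 3, 96268654 to 96269141, plus strand) read 5377, 4963 and 5038 in tumours, 10952, 11125 and 12354 in 2D culture and 4927, 3063 and 3100 in the bioink.

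In these 2 Hist2 genes bioink replicate 1 departed in opposite directions, being 1.60 times the mean of the other 2 bioink libraries in Hist2h3b and 0.634 times in Hist2h3c2. Of their 50-base stretches, 79.7% in Hist2h3b and 63.5% in Hist2h3c2 occur in transcripts of other genes, each other's among them. Whether reads were split between the 2 was not tested. The call of Hist2h3b between bioink and tumours (-0.51, SE 0.16) was lost under each of the 3 other scalings and without tumour replicate 1 or bioink replicate 2 or 3. Hist1h3a was not called between bioink and tumours, at 981, 851 and 749 in tumours, 2388, 2202 and 2326 in 2D culture and 1162, 600 and 666 in the bioink. Replicate 1 of the bioink was above the tumours and the other 2 below them, and without it the gene was called lower (log2 difference -0.44). Hist2h3c1, whose transcript shares 100% of its 50-base stretches with other genes, lay between 28 and 72 and overlapped in all comparisons.

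The genes of H4 rose in 2D culture as in the other classes but differed less between bioink and tumours. Their sum was 14089, 12892 and 11877 in tumours, 30939, 30065 and 30531 in 2D culture and 12429, 9684 and 9766 in the bioink. The 2D culture mean was 2.36-fold above tumours. The bioink mean was 1.22-fold below tumours with overlap, and 1.33-fold below without bioink replicate 1, which removes the overlap. Of the 13 genes, 12 were called higher in 2D culture than in tumours (median 0.95), 7 lower in 3D bioink than in tumours (median -0.33) and 12 lower in 3D bioink than in 2D culture (median -1.47). The count between bioink and tumours was unstable. After equal totals 1 H4 gene was called lower and 2 higher (median -0.07), after equal upper quartiles 3 lower and 2 higher, and after quantile normalization 2 lower and 1 higher. Without any 1 of the tumour libraries, or of bioink replicates 2 and 3, 4 were called lower and none higher.

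Hist1h4b (chromosome 13, 23757013 to 23757409, plus strand) had the most positive difference of the 56 tested members between 2D culture and tumours. It read 2106, 1744 and 1360 in tumours, 7700, 7373 and 7207 in 2D culture and 2300, 1757 and 1805 in the bioink. The 2D culture was 4.28-fold above tumours (log2 difference 2.12, SE 0.15), while bioink and tumours overlapped (0.18, SE 0.15). Hist4h4 (chromosome 6, 136801553 to 136804415, minus strand) was like it, at 660, 591 and 538 in tumours, 1750, 1917 and 1781 in 2D culture and 582, 778 and 615 in the bioink. Its 2D culture was 3.05-fold above tumours, and bioink overlapped tumours (0.14, SE 0.12). These are the 2 genes called higher in bioink than in tumours after equal totals or equal upper quartiles, with 0.44 and 0.42 for Hist1h4b and 0.40 and 0.37 for Hist4h4.

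Other H4 genes were lower in the bioink. Hist1h4d (chromosome 13, 23581598 to 23582735, plus strand) read 4810, 4304 and 3579 in tumours, 8799, 8360 and 9629 in 2D culture and 3214, 2755 and 2924 in the bioink, with separate groups and a log2 difference of -0.51 (SE 0.11) between bioink and tumours, not called after quantile normalization or equal totals. Hist2h4 (chromosome 3, 96261682 to 96263311, minus strand) read 626, 587 and 507 in tumours, 1373, 1392 and 1345 in 2D culture and 377, 356 and 317 in the bioink, also separate, with a log2 difference of -0.71 (SE 0.10). Hist1h4k read 1173, 1103 and 1130 in tumours, 2143, 2029 and 2079 in 2D culture and 1133, 686 and 628 in the bioink. Its bioink replicate 1 lay inside the tumour range, and its call between bioink and tumours (-0.53, SE 0.18) was lost without any 1 of the tumour libraries or of bioink replicates 2 and 3, and under all 3 other scalings. Hist1h4n was the only one of the 56 tested members with a positive difference between bioink and 2D culture (0.17, SE 0.47, not called). It lay between 46 and 162 with no order, its sign changed with several settings, and 85.6% of its 50-base stretches occur in other genes. Hist1h4j had the most positive difference of the 56 tested members between bioink and tumours (0.26, SE 0.34, not called), at 132, 142 and 69 in tumours, 369, 280 and 327 in 2D culture and 210, 94 and 112 in the bioink.

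Sequence shared between genes went with a wider spread between replicates. In 29 of the 60 members at least 50% of the 50-base stretches occur in transcripts of other genes. The median SD of log2 values in these, among the members tested, was 0.184 in tumours, 0.153 in 2D culture and 0.332 in the bioink, against 0.136, 0.0988 and 0.224 in the others. Members with shared sequence include low ones such as Hist1h2br and Hist1h2bk (means of 20 and 31.6 over the 9 libraries). The others include Hist2h2be (35.2). Low values also widen the spread of logs, and their part in it was not tested. Between bioink and 2D culture the median log2 difference was -1.68 in the members with shared sequence and -1.60 in the others. The annotated length after the stem-loop was also set beside the values: 19 transcripts run 100 or more bases past it and 21 stop sooner. Between bioink and 2D culture the median log2 difference was -1.55 in the 18 longer ones tested and -1.81 in the 21 shorter, and -1.52 in the 17 tested without a match. The last group includes transcripts annotated to end at the stop codon, so it is not a group of genes without a stem-loop.

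The genes that make histone mRNA were called in both directions. Of 13 such genes, 5 rose and 1 fell in 2D culture against tumours, 4 rose and 4 fell in 3D bioink against tumours, and 4 rose and 6 fell in 3D bioink against 2D culture. Over all genes the shares called higher and lower were 27.3% and 27%, 27.1% and 37.3%, and 27% and 32.2% in these comparisons, and with so few genes nothing is read from the counts. They also moved with the setting: after equal totals 7 rose and 4 fell in the bioink against tumours and 4 rose and 3 fell against 2D culture, and without 2D culture replicate 2 only 1 rose against 2D culture (2 without 2D culture replicate 1 or bioink replicate 3). Slbp, which binds the stem-loop, read 2036, 2127 and 2222 in tumours, 2533, 2529 and 2616 in 2D culture and 1284, 1485 and 1589 in the bioink. It had the order of the histone genes, with smaller steps than the histone medians to and from 2D culture. From tumours to 2D culture it rose by 0.27 (SE 0.08, limma adjusted p = 0.0151). That call was lost without tumour replicate 1 or 2D culture replicate 3 (limma adjusted p = 0.0538 and 0.051). From tumours to bioink Slbp fell by 0.56 (SE 0.08, limma adjusted p = 0.000147), near the histone median of -0.58. From 2D culture to bioink it fell by 0.82 (SE 0.08, limma adjusted p = 1.19e-05).

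Npat, the activator of histone gene transcription, had another order, with 214, 203 and 206 in tumours, 369, 371 and 335 in 2D culture and 662, 528 and 547 in the bioink. It was highest in the bioink, 1.47 above tumours on the log2 scale (SE 0.11, limma adjusted p = 2.43e-06) and 0.69 above 2D culture (SE 0.11, limma adjusted p = 0.000535). Cpsf2, a subunit of the cleavage complex, read 1002, 891 and 903 in tumours, 2163, 2091 and 2081 in 2D culture and 1368, 1192 and 1199 in the bioink, a rise of 1.18 (SE 0.07, limma adjusted p = 5.87e-07) in 2D culture. The nuclease of the complex, Cpsf3, fell by 0.90 in bioink against tumours (SE 0.11, limma adjusted p = 6e-05) and differed by 0.01 between 2D culture and tumours (SE 0.11, not called). Lsm10, a protein of the U7 particle, read 147, 130 and 166 in tumours, 105, 91 and 96 in 2D culture and 68, 67 and 75 in the bioink, lower in bioink than in tumours by a log2 difference of -1.06 (SE 0.18, limma adjusted p = 0.000632). Casp8ap2, which takes part in histone locus bodies, was called between the cultures (0.43 in the bioink against 2D culture, SE 0.14, limma adjusted p = 0.026), a call lost without any 1 of 4 libraries (2D culture replicates 1 and 2 and bioink replicates 2 and 3). Hinfp, a factor for H4 promoters, was low throughout, at 17, 47 and 0 in tumours, 0, 0 and 5 in 2D culture and 64, 26 and 26 in the bioink.

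Of 11 histone variant genes tested, 9 fell in 3D bioink against tumours (median -0.50), and in 2D culture against tumours 4 rose and 3 fell (median -0.06). The variants, H2afx and Cenpa among them, were not sorted by whether their expression follows the cell cycle. Of all genes, 37.3% were called lower and 27.1% higher in 3D bioink against tumours, and 27.3% higher and 27% lower in 2D culture against tumours. With so few variants nothing is read from the counts. The count in the bioink depended on scaling: 8 fell and 1 rose after quantile normalization, 5 and 1 after equal upper quartiles, and 4 and 1 after equal totals. H2afx, an H2A variant known for its part in DNA damage signalling, had the largest rise of the variants tested in 2D culture, at 1818, 1762 and 1700 in tumours, 5645, 5653 and 6043 in 2D culture and 1483, 1320 and 1200 in the bioink. It rose by 1.71 from tumours to 2D culture (SE 0.08, limma adjusted p = 5.63e-08) and fell by 0.40 from tumours to bioink (SE 0.08, limma adjusted p = 0.00108), the latter not called after equal totals (adjusted p = 0.14). H2afz read 2845, 2648 and 2500 in tumours, 3425, 3433 and 3335 in 2D culture and 1448, 1294 and 1116 in the bioink, 0.35 higher in 2D culture (SE 0.09, limma adjusted p = 0.00767) and -1.06 in bioink (SE 0.09, limma adjusted p = 4.73e-06). The H3.3 gene H3f3b fell in both cultures against tumours, by 0.64 in 2D culture (SE 0.04, limma adjusted p = 5.31e-07) and by 0.88 in bioink (SE 0.04, limma adjusted p = 7.1e-08). For H3f3a, the other gene of the same variant, the differences were -0.17 (SE 0.08, limma adjusted p = 0.0983) and -0.57 (SE 0.08, limma adjusted p = 0.000158). Cenpa, the centromeric H3 variant, rose by 0.78 in 2D culture (SE 0.14, limma adjusted p = 0.00107), and its fall of 0.54 in the bioink (SE 0.14, limma adjusted p = 0.00714) was not called under the 3 other scalings (adjusted p = 0.0529 to 0.113). The replacement linker histone H1f0 rose by 0.45 in 2D culture (SE 0.05, limma adjusted p = 5.51e-05). Between bioink and tumours it was not called (0.08, SE 0.05, limma adjusted p = 0.198), but it was called higher in the bioink under the 3 other scalings (0.36, 0.32 and 0.35, limma adjusted p = 0.000192 to 0.000983). The H2A variant H2afv fell in the bioink by 0.40 (SE 0.09, limma adjusted p = 0.00326), a call lost with equal upper quartiles (adjusted p = 0.195) and equal totals (adjusted p = 0.199).

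Histone chaperones carry new histones to DNA. Of 14, 9 rose and 2 fell in 2D culture against tumours, and 2 rose and 10 fell in 3D bioink against tumours (4 rose and 7 to 9 fell under the 3 other scalings, and 1 rose and 9 fell without tumour replicate 1 or 2 or bioink replicate 1). The shares of all genes called higher and lower were 27.3% and 27%, then 27.1% and 37.3%, and nothing is read from so few chaperones. Asf1b, a chaperone of H3 and H4 tied to proliferation, read 349, 258 and 354 in tumours, 631, 624 and 581 in 2D culture and 199, 162 and 211 in the bioink, and was thus separate in the order of the histone genes. Nasp, another carrier of H3 and H4, rose by 0.46 in 2D culture (SE 0.08, limma adjusted p = 0.000955), and its difference of -0.23 between bioink and tumours (SE 0.08, limma adjusted p = 0.0341) was lost or changed sign under each other scaling and without any 1 of 4 libraries. Daxx and Atrx, which deposit H3.3, departed from this order. Daxx read 4503, 4314 and 4666 in tumours, 1520, 1429 and 1666 in 2D culture and 680, 871 and 794 in the bioink, and Atrx 3315, 3144 and 3546, then 1166, 1104 and 1085, then 4621, 3701 and 3645.

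Genes of DNA replication and mitosis were set beside the histone genes, because histone RNA is made in cycling cells. Of 26 S phase genes, 22 rose and none fell in 2D culture against tumours (median 0.86, also none at an unadjusted limma p under 0.05), and 25 fell in 3D bioink against 2D culture (median -1.40). Against tumours the bioink was mixed, with 7 higher and 14 lower (median -0.39). S phase calls in that comparison also depended on scaling, as for Pcna below. Of 19 mitosis genes, 17 rose in 2D culture (median 1.31) and 17 fell in 3D bioink against 2D culture (median -1.46), and against tumours 5 were higher and 8 lower in the bioink (median -0.22), against 9 higher and 6 lower after equal totals (median 0.04). Over all genes the shares called higher and lower were 27.3% and 27% in 2D culture against tumours. They were 27% and 32.2% in 3D bioink against 2D culture, and 27.1% and 37.3% in 3D bioink against tumours. Nothing is read from the counts of either list in the bioink against tumours. The histone medians in the same 3 comparisons were 0.96, -1.64 and -0.58. Within these lists Cdt1, a licensing factor, fell most between tumours and bioink among S phase genes (-1.49, SE 0.11, limma adjusted p = 1.48e-06), while Ccne2, a cyclin of S phase entry, rose (1.12, SE 0.22, limma adjusted p = 0.00128). Pcna, the replication clamp, had the histone order, with a rise of 0.32 in 2D culture (SE 0.09, limma adjusted p = 0.0099) and a fall of 0.47 in the bioink against tumours (SE 0.09, limma adjusted p = 0.000926, not called after equal totals with adjusted p = 0.0684). Mki67, a proliferation marker, was not called in any comparison, at 1724, 1817 and 1754 in tumours, 1858, 1936 and 1974 in 2D culture and 1710, 1871 and 1910 in the bioink, but under each of the 3 other scalings it was called higher in bioink than in tumours. It was also called higher in 2D culture than in tumours with equal totals (0.19, limma adjusted p = 0.0198) and without bioink replicate 1 (0.12, limma adjusted p = 0.0412).

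**Figure D4:**
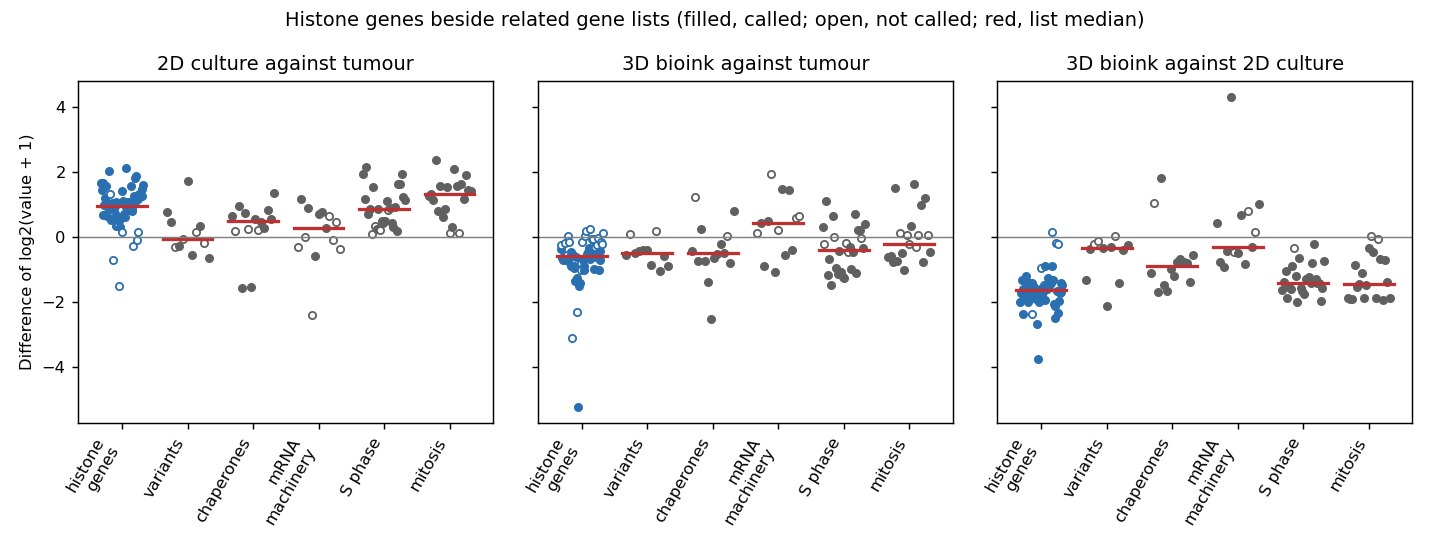
Difference of log2(value + 1) for the tested histone genes (blue) and for 5 related gene lists (grey) in the 3 comparisons; filled points were called, open points were not, and red bars are list medians. In 3D bioink against 2D culture the medians of the histone genes (-1.64), S phase (-1.40) and mitosis (-1.46) lie close together and below those of the variants (-0.34) and the mRNA machinery (-0.30). The median of the chaperones (-0.90) lies in between.

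The mixture of cells also differed between the groups. Myeloid markers (11 genes, which microglia and macrophages express) summed to 44058 to 46843 in tumours, 249 to 311 in 2D culture and 591 to 611 in the bioink, and C1qa was at 0 in all 3 libraries of 2D culture. The summed T cell markers (5 of 6 genes in the table) ran from 306 to 341, 80 to 97 and 196 to 255. The sums of 6 genes each were 4008 to 4245, 4155 to 4473 and 4399 to 4706 for astrocyte markers, 5345 to 5706, 4733 to 5098 and 5278 to 7653 for endothelial markers, and 1414 to 1586, 965 to 1008 and 2494 to 2579 for pericyte markers, in the same order of groups. These last 3 sums combine members that differed in direction. In 2D culture against tumours 2 astrocyte markers were called higher and 2 lower, 1 and 3 endothelial markers, and 2 and 2 of the 4 pericyte markers tested. Over all genes 27.3% were called higher and 27% lower. Similar sums therefore do not show similar cell content. Tumours held far more myeloid RNA than either culture. The part of these cells in the histone differences was not tested.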

How the data were processed

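Bulk RNA was sequenced from 3 tumour, 3 2D culture and 3 3D bioink libraries. The deposited value is a score: a normalized count per gene symbol and library, in whole numbers after rounding by the authors. The submitters' processing notes name mm10 as the build, and DESeq, DESeq2 1.24.0, RSEM and kallisto as tools, with neither role nor order, and the use of strand in counting is not given in the sources used here. Because the values are no longer raw counts, no count model was applied. The depth per library is unknown, so no counting interval or floor is given.

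Genes were tested on log2(value + 1) when their mean over 9 libraries was at least 10 (13773 of 20778). One limma model (3.58.1, R 4.3.3; lmFit, contrasts, eBayes with trend) was fitted to all 9 libraries, and p was adjusted by Benjamini-Hochberg over all 13773 genes (threshold 0.05). All adjusted p-values are limma's. Folds are ratios of group means, and log2 differences, which understate low genes, come from the fit.

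The members and the gene lists were chosen with earlier results of these data known. The named genes are the 3 of each class with the highest mean, the most positive and most negative member of each comparison, all tested members outside Hist1, the extreme called genes of the other lists, and a fixed set including Slbp, Npat, H2afx and Mki67. Hist1h1a, Hist1h2ap, Hist1h2bb, Hist1h2bl and Hist1h2bn were added after their values were seen, and marker lists are given as lists. Alternatives were the pseudocount, the filter, quantile, upper quartile and total scaling, array weights, a replicate block and leaving out each library. Summing near-identical copies was added after seeing the data. Transcripts came from GENCODE (60 of 60 matched by symbol) and promoters from RefSeq (GRCm38.p6, 54 matched by gene ID through synonyms). Histone genes of the annotation outside the table, among them Hist1h3d and Hist2h2bb, and RNAs without a poly(A) tail of other kinds were not analysed here.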

Additional observations from a re-analysis of the deposited data

How the results depend on the processing

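Direction and calls between 2D culture and tumours, and between the cultures, held best. Genes called higher in 2D culture than in tumours numbered 43 to 48 when a library was left out and 47 under each other scaling, and genes called lower in 3D bioink than in 2D culture numbered 48 to 51 over all settings. A pseudocount of 5 called 1 gene (Hist1h2bk) lower in 2D culture. The comparison of bioink with tumours depended on scaling: 34 genes were called lower, against 23 with quantile normalization, 25 with equal upper quartiles, 21 with equal totals, 41 with array weights and 29 to 38 when a library was left out. Genes called higher numbered 1 with quantile normalization and without a filter, and 2 with equal upper quartiles or equal totals. The share of all genes called was not counted under these alternatives, so their counts have no background. The median difference between bioink and tumours was -0.34 (quantile), -0.35 (upper quartiles) and -0.32 (totals), and that between the cultures was -1.41 (upper quartiles) and -1.44 (totals). The cause was not tested, and the scalings moved the median of all genes between bioink and tumours from -0.11 to 0.04, 0.12 and 0.14. No called histone gene changed sign in any setting.

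Same-numbered libraries correlated weakly, at -0.0326 to 0.0797 in their deviations from group means, and differently numbered ones at -0.0635 to 0.0522. Between tumours and bioink the same-numbered values were 0.0338 to 0.0797 and the others -0.0635 to 0.00944. Whether libraries of the same number shared a batch was not tested. With the replicate block, 38 genes were called lower in bioink than in tumours, 48 higher in 2D culture than in tumours and 50 lower in bioink than in 2D culture.

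Small differences changed sign. Between bioink and tumours, equal totals gave 0.043 for Cenpe, 0.016 for Hist1h1b, 0.12 for Hist1h3a, 0.16 for Hist1h4n, 0.21 for Hist2h2aa1, 0.0020 for Hist2h2be, 0.22 for Hist2h3c1, 0.12 for Hist3h2ba, 0.039 for Hist3h2bb-ps and 0.035 for Nasp. Equal upper quartiles gave 0.019 for Cenpe, 0.095 for Hist1h3a, 0.14 for Hist1h4n, 0.18 for Hist2h2aa1, 0.20 for Hist2h3c1, 0.093 for Hist3h2ba, 0.016 for Hist3h2bb-ps and 0.012 for Nasp. Quantile normalization gave 0.034 for Hist1h3a, 0.047 for Hist1h4n, 0.14 for Hist2h2aa1 and 0.076 for Hist3h2ba. Array weights gave 0.17 for Hist2h2be. Between 2D culture and tumours, equal totals gave 0.0095 for H2afv. Quantile normalization gave -0.019 for Cpsf3, 0.15 for Hist1h4n and 0.53 for Hist2h2be. Array weights gave -0.0031 for Cpsf3. Between bioink and 2D culture, equal totals gave 0.022 for Hist2h2be and 0.13 for Mki67. Equal upper quartiles gave 0.056 for Hist2h2be, 0.023 for Hist2h3c1, 0.16 for Mki67 and 0.026 for Pola1. Quantile normalization gave 0.12 for H3f3b, -0.10 for Hist1h4n and 0.13 for Mki67. Array weights gave -0.54 for Hist1h4n and 0.28 for Hist2h2be.

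With 1 library left out, differences between bioink and tumours ranged from -0.17 to 0.15 for Hist1h2ag, -0.44 to 0.041 for Hist1h3a, -0.086 to 0.49 for Hist1h4j, -0.30 to 0.29 for Hist1h4n, -0.48 to 0.20 for Hist2h2aa1, -0.83 to 0.095 for Hist2h2ab, -0.54 to 0.27 for Hist2h2be, -0.26 to 0.21 for Hist2h3c1 and -0.31 to 0.058 for Hist3h2ba. Those between 2D culture and tumours ranged from -0.053 to 0.065 for Cpsf3, -0.11 to 0.042 for H2afv, -1.64 to 0.44 for Hist1h2ao, -0.55 to 0.19 for Hist1h4n, -0.33 to 0.24 for Hist2h2be and -0.16 to 0.50 for Hist2h3c1. Those between bioink and 2D culture ranged from -0.050 to 0.12 for Cenpf, -3.96 to 0.17 for Hist1h2ao, -0.29 to 0.55 for Hist1h4n, -0.46 to 0.35 for Hist2h2be and -0.54 to 0.13 for Hist2h3c1.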
